A study of Homo sapiens with 9 samples.

Results

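The genes examined here encode the main parts of the MHC class I antigen presentation pathway: the class I heavy chains HLA-B, HLA-C and HLA-E, their light chain B2M, the peptide transporter subunits TAP1 and TAP2, the loading factor TAPBP (tapasin), and the immunoproteasome subunits PSMB8 and PSMB9. They were chosen by gene name, by mapping the Ensembl identifiers of the count table to symbols, and not by a rule on their counts. Earlier results of these data were known when they were chosen. All 9 were found among the 24344 genes of the table, and all 9 passed the filter on low counts, which 14195 genes passed in all. The cells were MDA-MB-231, a long-established line from a human breast adenocarcinoma, cultured in DMEM with fetal bovine serum. In order to separate the contributions of the herbs Kushen and Baituling to Compound Kushen Injection (CKI), which is made from both, cells received CKI at 2.0 mg/mL, Kushen injection or Baituling injection for 48 h, the single injections being given in the same ratio as CKI. Each treatment had 3 libraries of unstranded paired-end RNA sequencing, labelled as biological replicates. Untreated libraries were not analysed here, so every difference below is between injections, and a gene lower under CKI cannot be told apart from a gene higher under Baituling. In these bulk samples fewer cells that express a gene cannot be told apart from less of its RNA per cell.

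Class I molecules show fragments of the cell's own proteins at its surface. Proteasomes cut proteins into peptides, the TAP transporter carries the peptides into the endoplasmic reticulum, tapasin holds an empty class I molecule beside the transporter, and a heavy chain with bound peptide and B2M travels to the surface, where CD8 T cells and natural killer cells read it. Interferons raise most of these genes together, and tumours often lower them. In immunoproteasomes the constitutive catalytic subunits PSMB5, PSMB6 and PSMB7 are replaced by the inducible subunits PSMB8, PSMB9 and PSMB10, respectively.

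B2M lies on chromosome 15 (chr15:45003556-45011049 in GRCh37, plus strand), and the other genes lie in the MHC on chromosome 6. In GENCODE, HLA-E (chr6:30457286-30461971) and PSMB9 (chr6:32811913-32827628) are on the plus strand. HLA-C (chr6:31236526-31239907), HLA-B (chr6:31321649-31334844), TAP2 (chr6:32789610-32806516), PSMB8 (chr6:32808494-32812456), TAP1 (chr6:32812986-32821593) and TAPBP (chr6:33267471-33282061) are on the minus strand. TAP1 and PSMB9 are divergent neighbours, with 487 bases between their RefSeq start sites. The GENCODE spans above differ from these starts: by them TAP1 lies within PSMB9, and PSMB8 and PSMB9 overlap. Several of the windows below, taken from RefSeq starts, lie partly or wholly inside the GENCODE span of their own gene. Because most of these genes are known to answer to the same interferon and NF-kappaB signals, the 250 bases before their start sites are shown for 6 genes: HLA-B and B2M, whose products pair at the surface; TAP1 and PSMB9, which share the stretch between their starts; TAPBP; and PSMB8, which differed most between CKI and Baituling. The sequences are from RefSeq (GRCh38.p14 table, in which 8 of the 9 genes were matched, all but HLA-E), and each was placed by its single exact match in GRCh37: HLA-B at chr6:31324957-31325206 on the minus strand, B2M at chr15:45003465-45003714 on the plus strand, TAP1 at chr6:32821482-32821731 on the minus strand, PSMB9 at chr6:32821719-32821968 on the plus strand, TAPBP at chr6:33281856-33282105 on the minus strand and PSMB8 at chr6:32812457-32812706 on the minus strand. Capitals mark matches, on either strand, to the interferon response element (GAAA, any 2 bases, GAAA), its shorter form GAANNGAAA, the kappaB-like motif (GGG, any 2 bases, TT, any base, CC), the CCAAT box, the cyclic AMP response core TGACG or the gamma-activated sequence TTCNNNGAA.
HLA-B: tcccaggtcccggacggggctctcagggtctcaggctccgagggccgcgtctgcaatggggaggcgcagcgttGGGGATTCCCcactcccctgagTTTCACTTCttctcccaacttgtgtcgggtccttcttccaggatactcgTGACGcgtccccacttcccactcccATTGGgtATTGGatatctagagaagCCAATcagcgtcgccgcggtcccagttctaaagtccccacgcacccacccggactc
B2M: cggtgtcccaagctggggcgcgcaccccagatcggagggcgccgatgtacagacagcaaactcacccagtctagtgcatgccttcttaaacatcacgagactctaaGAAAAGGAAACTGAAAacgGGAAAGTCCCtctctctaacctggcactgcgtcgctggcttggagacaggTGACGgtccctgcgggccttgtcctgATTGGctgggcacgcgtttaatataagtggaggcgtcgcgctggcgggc
TAP1: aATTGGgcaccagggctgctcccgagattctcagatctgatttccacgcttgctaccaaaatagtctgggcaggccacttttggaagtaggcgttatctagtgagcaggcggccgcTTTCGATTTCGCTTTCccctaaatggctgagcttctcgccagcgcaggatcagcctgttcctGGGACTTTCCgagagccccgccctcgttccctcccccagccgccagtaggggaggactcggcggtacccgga
PSMB9: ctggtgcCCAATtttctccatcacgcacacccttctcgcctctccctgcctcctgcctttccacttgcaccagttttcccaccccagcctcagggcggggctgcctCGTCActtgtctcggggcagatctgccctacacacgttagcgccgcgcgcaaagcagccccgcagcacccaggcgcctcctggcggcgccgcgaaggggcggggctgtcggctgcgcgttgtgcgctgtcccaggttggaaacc
TAPBP: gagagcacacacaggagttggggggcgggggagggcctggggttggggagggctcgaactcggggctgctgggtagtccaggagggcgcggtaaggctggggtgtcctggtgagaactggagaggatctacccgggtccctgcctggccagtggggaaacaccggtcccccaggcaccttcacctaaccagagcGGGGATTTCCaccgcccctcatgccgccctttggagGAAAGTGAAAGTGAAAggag
PSMB8: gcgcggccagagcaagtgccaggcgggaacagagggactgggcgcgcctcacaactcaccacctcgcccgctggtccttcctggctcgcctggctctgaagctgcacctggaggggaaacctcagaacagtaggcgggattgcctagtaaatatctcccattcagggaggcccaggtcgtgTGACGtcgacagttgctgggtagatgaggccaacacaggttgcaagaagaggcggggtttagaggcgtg

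The interferon response element was found in 4 of the 8 promoters (B2M, TAP1, TAP2 and TAPBP) and in 3.07% of the 27305 RefSeq promoters cut to the same length. The shorter GAANNGAAA was found in 3 of 8 (HLA-B, HLA-C and TAP2) and in 6.77% of all, and the kappaB-like motif in 4 of 8 (HLA-B, B2M, TAP1 and TAPBP) and in 5.08% of all. CCAAT was present in 5 of 8 against 33.0% of all promoters, TGACG in 6 of 8 against 21.7%, and TTCNNNGAA in 0 of 8 against 6.78%. The windows of TAP1 and PSMB9 overlap at their far ends. The CCAAT matches of these genes are the same bases read on opposite strands, so that site was counted for both. In B2M both copies of the interferon response element overlap each other, as do those of TAP1 and of TAPBP, and in TAP2 the element overlaps its shorter form. Neither PSMB8 nor PSMB9, whose fold changes against Baituling were the largest of the 9 genes, held an interferon response element or a kappaB-like motif in this window. For PSMB9 this depends on the window. The TAP1 matches to both motifs lie between the TAP1 and PSMB9 starts, beyond the 250 bases taken for PSMB9. The motif letters were picked with the sequences in view, so these shares only describe the windows.

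Libraries held between 20144628 and 23782071 counts. Together the 9 genes took 0.387% to 0.408% of these under CKI, 0.364% to 0.380% under Kushen and 0.4887% to 0.5003% under Baituling. Levels are given as CPM, counts per 1000000 on library sizes scaled by TMM, and differences as log2 fold changes ± SE. A gene passed at an adjusted p under 0.05 (edgeR quasi-likelihood test, Benjamini-Hochberg over 14195 genes) and was called where its log2 fold change was also beyond 1 in either direction. Of the defining markers of MDA-MB-231, vimentin (VIM), CD44 and EGFR together reached 1383 to 1409 CPM in CKI, 1623 to 1690 CPM in Kushen and 3178 to 3252 CPM in Baituling libraries, with VIM lower under CKI (350.5 CPM on average) than under Baituling (2070) and EGFR higher (427 against 247 CPM). ESR1, PGR, CDH1 and EPCAM, which this line largely lacks, together reached 7.67 to 16.1 CPM. Leukocyte markers, among them PTPRC, CD3E, MS4A1, CD14 and ITGAX, summed to 5.51 to 11.7 CPM, most of it CD14, and MS4A1 had no count in any library. Of 6 endothelial and fibroblast markers 5 were in the table, and their sum was 19.03 to 20.97 CPM in CKI, 10.9 to 12.7 CPM in Kushen and 5.74 to 6.49 CPM in Baituling libraries. These sums moved with the groups, and their part in the results was not tested.

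In brief, 8 of the 9 genes were lower under CKI than under Baituling, and the same number was lower under Kushen than under Baituling. The immunoproteasome subunits PSMB8 and PSMB9 differed most, the classical heavy chains and tapasin came next, B2M, TAP2 and TAP1 differed less, and the non-classical heavy chain HLA-E did not pass. TAP1 was closest to 0 of the 8 genes between CKI and Baituling (-0.16), and between Kushen and Baituling it was level with B2M (both -0.36). CKI and Kushen were close to each other, where the largest difference among the 9 genes was 1.16-fold (PSMB8). Both comparisons with Baituling use the same Baituling libraries. Changes were spread across the transcriptome in these comparisons: 76.1% of all genes tested passed between CKI and Baituling (39.1% higher and 37.0% lower under CKI) and 71.6% between Kushen and Baituling (35.6% higher and 36.1% lower under Kushen), while 39.8% passed between CKI and Kushen (19.6% higher and 20.2% lower under CKI). The median log2 fold change of the 9 genes was -0.68 between CKI and Baituling, -0.77 between Kushen and Baituling and 0.10 between CKI and Kushen, beside 0.03, 0.02 and 0.01 for all genes tested. Between CKI and Baituling, and between Kushen and Baituling, the groups did not overlap for 8 of the 9 genes, as was the case for 78.3% and 73.1% of all genes tested.

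**Figure D1:**
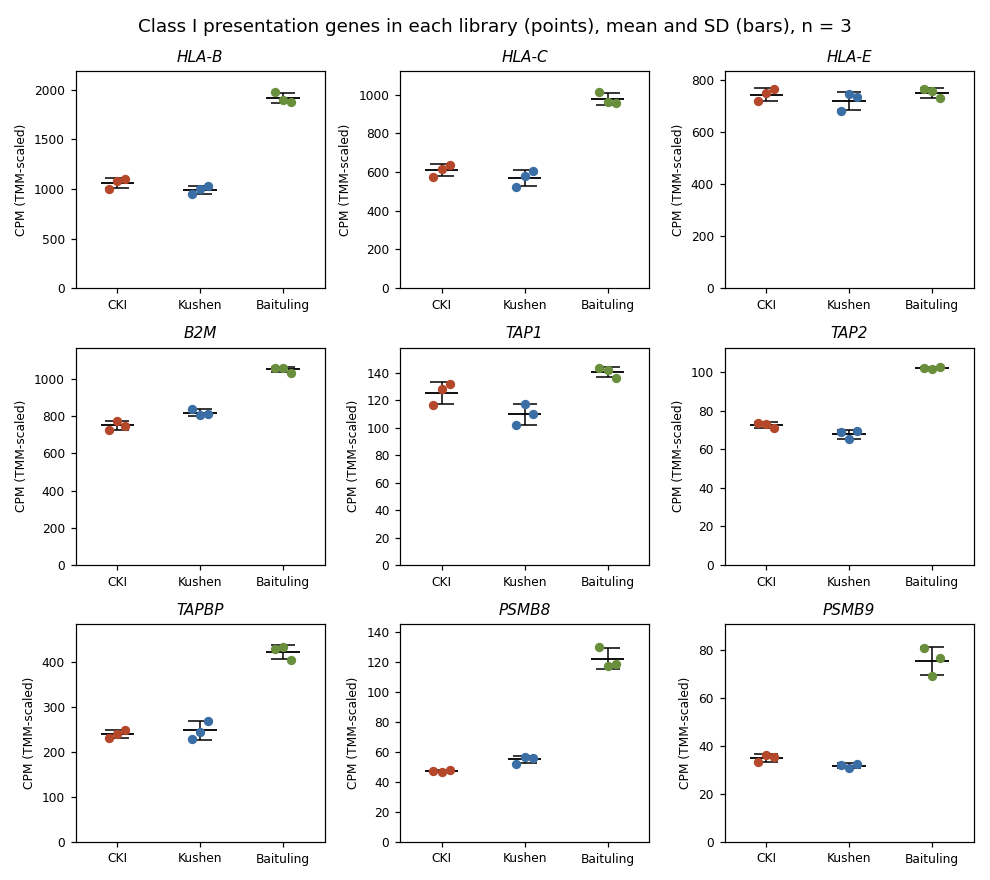
Level of each gene (CPM on TMM-scaled library sizes, linear axis from 0) in the CKI, Kushen and Baituling libraries. Points are libraries and bars the mean and SD of 3. Baituling libraries lie above both other groups for 8 genes, and for HLA-E the 3 groups overlap, within a full span of 681 to 766 CPM.

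HLA-B, a classical heavy chain that presents peptides to CD8 T cells, was at 997, 1084 and 1099 CPM in the CKI libraries, at 947, 995 and 1027 CPM in the Kushen libraries and at 1978, 1899 and 1873 CPM in the Baituling libraries. Every Baituling library was above every other library, while the CKI and Kushen libraries overlapped. Its level was 1.81-fold lower under CKI than under Baituling (log2 fold change -0.85 ± 0.04, adjusted p = 1.38e-12) and 1.94-fold lower under Kushen (-0.95 ± 0.04, adjusted p = 4.02e-13). Between CKI and Kushen it did not pass (0.10 ± 0.04, adjusted p = 0.0863), with a 95% interval of the log2 difference from 0.01 to 0.19. Without CKI replicate 1, its lowest CKI library, the difference was 0.14 and passed.

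HLA-C, the other classical heavy chain examined and a ligand of natural killer cell receptors, followed the same order. It was at 576, 617 and 638 CPM in CKI, 525, 581 and 605 CPM in Kushen and 1016, 964 and 959 CPM in Baituling libraries. The Baituling libraries again stood above the rest. HLA-C was 1.61-fold lower under CKI (-0.68 ± 0.05, adjusted p = 2.93e-10) and 1.72-fold lower under Kushen (-0.78 ± 0.05, adjusted p = 5.49e-11), and it did not pass between CKI and Kushen (0.10 ± 0.05, adjusted p = 0.139).

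HLA-E is a non-classical heavy chain that mainly presents leader peptides of other class I chains to natural killer cells. Its libraries ranged from 717 to 766 CPM in CKI, from 681 to 747 CPM in Kushen and from 729 to 763 CPM in Baituling, so that all 3 groups overlapped. The log2 difference was -0.01 between CKI and Baituling (95% interval -0.10 to 0.07, adjusted p = 0.807), -0.06 between Kushen and Baituling (-0.14 to 0.03, adjusted p = 0.235) and 0.05 between CKI and Kushen (-0.04 to 0.13, adjusted p = 0.421). The sign of the differences from Baituling depended on the scaling: on library totals in place of TMM, HLA-E was higher under CKI (0.27, adjusted p = 9.31e-07) and under Kushen (0.15, adjusted p = 0.000887), where the median of all genes tested was also higher, at 0.32 and 0.23.

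The ratio of HLA-E to HLA-B counts within a library is free of any scaling. It was 0.719, 0.690 and 0.698 in CKI libraries, 0.719, 0.751 and 0.713 in Kushen libraries and 0.386, 0.399 and 0.389 in Baituling libraries. The ratio was 1.79-fold higher under CKI and 1.86-fold higher under Kushen than under Baituling, with no overlap of groups. An exact two-sided permutation test of 3 libraries against 3 gave p = 0.1 for each, which is the smallest p this design allows, so no ratio of counts below can pass 0.05 (45 such tests, smallest adjusted p = 0.122). The ratios of HLA-E to HLA-B, of TAP1 to PSMB9 and of PSMB10 to PSMB7 were chosen after values were seen.

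B2M, the light chain that every class I molecule needs, was at 729, 775 and 748 CPM in CKI, 840, 804 and 813 CPM in Kushen and 1061, 1058 and 1035 CPM in Baituling libraries. Here the 3 groups were separate, in the order CKI, Kushen and Baituling. B2M was 1.40-fold lower under CKI than under Baituling (-0.49 ± 0.04, adjusted p = 7.85e-10) and 1.28-fold lower under Kushen (-0.36 ± 0.04, adjusted p = 8.00e-08). It was also lower under CKI than under Kushen, by a smaller step (-0.13 ± 0.04, adjusted p = 0.0139), and that difference no longer passed without CKI replicate 1 (adjusted p = 0.0671) or on library totals (-0.05, adjusted p = 0.267).

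Heavy chain and light chain counts did not keep one ratio. HLA-B to B2M was 1.37 to 1.47 in CKI, between 1.13 and 1.26 in Kushen and between 1.80 and 1.86 in Baituling libraries. HLA-E to B2M was lowest rather than highest in Baituling libraries, with 0.965 to 1.03 in CKI, between 0.811 and 0.929 in Kushen and between 0.704 and 0.719 in Baituling libraries. In both ratios no 2 groups overlapped (exact permutation p = 0.1, the smallest possible, for each of the 3 comparisons), and both were higher in CKI than in Kushen libraries.

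TAP1, a subunit of the peptide transporter, was at 116, 128 and 132 CPM in CKI, 102, 117 and 110 CPM in Kushen and 143, 142 and 136 CPM in Baituling libraries. The CKI libraries overlapped with the Kushen libraries and lay just under those of Baituling. TAP1 was lower under Kushen than under Baituling (-0.36 ± 0.05, adjusted p = 8.18e-06) and was the only gene of the 9 that passed as higher under CKI than under Kushen (0.19 ± 0.05, adjusted p = 0.0079), a difference that no longer passed without CKI replicate 3 (adjusted p = 0.0507). Its difference between CKI and Baituling was -0.16 ± 0.05 on the TMM scale (adjusted p = 0.00996) but 0.12 on library totals (adjusted p = 0.0289), and it did not pass with upper quartile scaling (-0.09, adjusted p = 0.10) or without CKI replicate 1 (adjusted p = 0.0817).

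TAP2, the other transporter subunit, was steadier between replicates. It was at 73.8, 73.3 and 71.2 CPM in CKI, 68.8, 65.2 and 69.3 CPM in Kushen and 102, 102 and 103 CPM in Baituling libraries. It was 1.40-fold lower under CKI (-0.49 ± 0.04, adjusted p = 4.70e-09) and 1.51-fold lower under Kushen (-0.59 ± 0.04, adjusted p = 4.16e-10) than under Baituling. The CKI and Kushen groups did not overlap, yet the difference between them did not pass (0.10 ± 0.04, adjusted p = 0.074). It did pass on library totals (0.18, adjusted p = 0.00457) and where every library had to hold 10 or more counts of a gene.

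TAPBP, which bridges the transporter and the empty heavy chain, was at 232, 241 and 249 CPM in CKI, 230, 246 and 270 CPM in Kushen and 429, 435 and 406 CPM in Baituling libraries. All Baituling libraries were above all others. The gene was 1.76-fold lower under CKI (-0.82 ± 0.05, adjusted p = 2.76e-11) and 1.70-fold lower under Kushen (-0.77 ± 0.05, adjusted p = 9.07e-11) than under Baituling. Between CKI and Kushen the log2 difference was -0.05 (95% interval -0.15 to 0.06, adjusted p = 0.513), and it was 0.03 on library totals and 0.01 without Kushen replicate 3.

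PSMB8, the inducible counterpart of PSMB5, was at 47.5, 46.6 and 48.0 CPM in CKI, 52.1, 56.5 and 56.2 CPM in Kushen and 130, 117 and 119 CPM in Baituling libraries. The 3 groups were separate, with CKI lowest. PSMB8 was 2.58-fold lower under CKI than under Baituling (-1.37 ± 0.05, adjusted p = 9.43e-15), which placed it at percentile 3.64 of all genes tested, counted from the most lowered. It was 2.22-fold lower under Kushen than under Baituling (-1.15 ± 0.05, adjusted p = 1.70e-13, percentile 4.93) and lower under CKI than under Kushen (-0.21 ± 0.05, adjusted p = 0.0035).

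PSMB9, the inducible counterpart of PSMB6, was at 33.1, 36.3 and 35.3 CPM in CKI, 32.2, 30.6 and 32.4 CPM in Kushen and 80.5, 68.9 and 76.7 CPM in Baituling libraries. It was 2.16-fold lower under CKI (-1.11 ± 0.06, adjusted p = 2.38e-12, percentile 6.41) and 2.38-fold lower under Kushen (-1.25 ± 0.06, adjusted p = 7.32e-13, percentile 4.06) than under Baituling. The CKI and Kushen libraries did not overlap, but the difference did not pass (0.14 ± 0.06, adjusted p = 0.0931).

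PSMB8 and PSMB9 were the 2 genes of the 9 called lower under CKI than under Baituling, and the 2 called lower under Kushen, against 7.91% and 6.73% of all genes tested called lower, 11.2% and 8.50% called higher, and 19.1% and 15.2% called in either direction. On library totals 1 of the 9 genes was called in each of these comparisons. The share of all genes tested that were called on library totals is not reported here. On that scale the differences between CKI and Baituling shrank by over 1.5 times for HLA-B (to -0.57), TAPBP (-0.53), HLA-C (-0.40), B2M (-0.20) and TAP2 (-0.20), and those between Kushen and Baituling for TAP2 (-0.38), B2M (-0.15) and TAP1 (-0.15), and all of these still passed. Between CKI and Kushen HLA-B (0.17), HLA-C (0.17), HLA-E (0.12), TAP2 (0.18) and PSMB9 (0.21) passed as higher on library totals but not with TMM. Other genes moved up on that scale too: the median of 20 other MHC region genes went from -0.03 to 0.05. Between CKI and Kushen, 1 gene passed as higher, 2 passed as lower and 0 were called, where 1.90% of all genes tested were called (1.70% higher and 0.197% lower). For 4 of the 9 genes the CKI and Kushen groups did not overlap, against 49.5% of all genes tested. In a test against a log2 fold change of 1, 1 gene passed between CKI and Baituling (PSMB8), 2 between Kushen and Baituling (PSMB8 and PSMB9) and 0 between CKI and Kushen. The shares of all genes passing that test are not reported here, so these counts have no background to be set against.

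**Figure D2:**
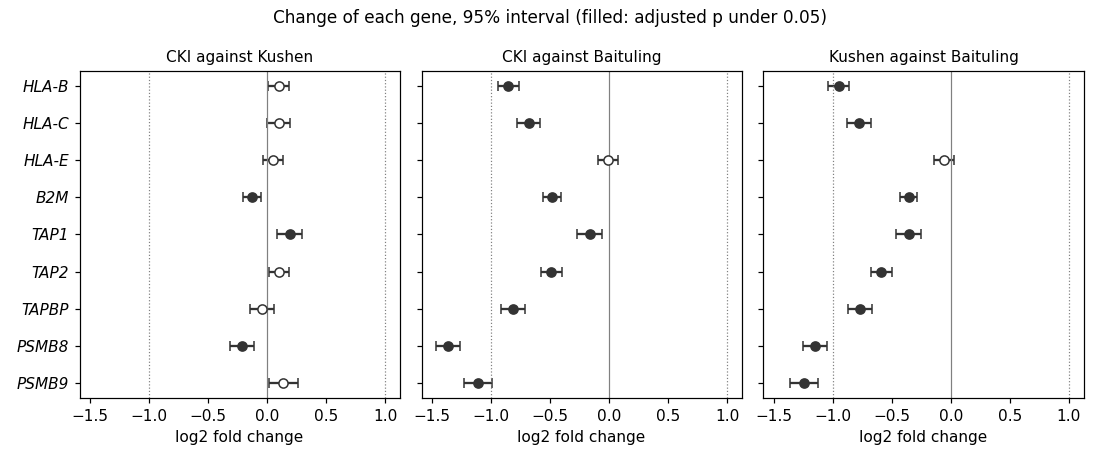
Log2 fold change of each gene (horizontal axis) in the 3 comparisons, with 95% intervals. Filled points passed at an adjusted p under 0.05 and dotted lines mark a log2 fold change of 1. Against Baituling, HLA-E lies near 0 and PSMB8 and PSMB9 lie beyond -1, and all 9 genes lie between -0.21 and 0.19 for CKI against Kushen.

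Set against their constitutive partners, the inducible subunits also differed between injections. The ratio of PSMB8 to PSMB5 counts was 0.324, 0.291 and 0.297 in CKI, 0.350, 0.393 and 0.412 in Kushen and 0.707, 0.695 and 0.706 in Baituling libraries. It was 2.32-fold lower under CKI and 1.83-fold lower under Kushen than under Baituling, and 1.27-fold lower under CKI than under Kushen, with no overlap in any comparison (exact permutation p = 0.1 each, the smallest possible). The ratio of PSMB9 to PSMB6 was 0.178 to 0.202 in CKI, between 0.185 and 0.195 in Kushen and between 0.308 and 0.337 in Baituling libraries. It was 1.68-fold lower under CKI and 1.70-fold lower under Kushen than under Baituling, and between CKI and Kushen the groups overlapped (log2 difference 0.02 ± 0.06, exact permutation p = 0.9).

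PSMB10, the inducible counterpart of PSMB7 and encoded outside the MHC on chromosome 16, was at 2.91 ± 0.148 CPM in CKI, 3.34 ± 0.261 CPM in Kushen and 13.4 ± 1.65 CPM in Baituling (SD, n = 3). Its log2 fold change was -2.21 ± 0.12 under CKI and -2.01 ± 0.12 under Kushen against Baituling (adjusted p = 3.63e-12 and 1.75e-11), a larger difference than that of PSMB8 or PSMB9 from counts of only 68 to 311 per library. The ratio of PSMB10 to PSMB7 was 0.00952 to 0.0105 in CKI, between 0.0121 and 0.0137 in Kushen and between 0.0388 and 0.0464 in Baituling libraries. Another annotated gene on the same strand overlaps 39.4% of the exon length of PSMB10, so its counts are uncertain. The constitutive subunits themselves differed less: PSMB5, PSMB6 and PSMB7 had log2 fold changes of -0.15, -0.36 and -0.11 for CKI against Baituling, where PSMB5 and PSMB7 turned to 0.13 and 0.18 on library totals, and of -0.28, -0.48 and -0.27 for Kushen against Baituling. On library totals PSMB6 did not pass for CKI (-0.07, adjusted p = 0.126), and for Kushen PSMB6 was the 1 of the 3 that passed (-0.27), with a median of -0.07.

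The ratio of TAP1 to PSMB9, the divergent neighbours, was 3.52, 3.54 and 3.72 in CKI, 3.17, 3.82 and 3.40 in Kushen and 1.78, 2.06 and 1.77 in Baituling libraries. It was 1.92-fold higher under CKI and 1.85-fold higher under Kushen than under Baituling (exact permutation p = 0.1 each, the smallest possible), and the CKI and Kushen libraries overlapped. The counts of these neighbours thus did not keep one ratio, although their RefSeq start sites are 487 bases apart. TAP1 to B2M was 1.25-fold higher under CKI than under Kushen and than under Baituling with no overlap, and overlapped between Kushen and Baituling (log2 difference 0.00 ± 0.08, exact permutation p = 0.9). TAP2 to B2M was higher under CKI than under Kushen (log2 difference 0.23) and lower under Kushen than under Baituling (-0.23) with no overlap, and overlapped between CKI and Baituling (-0.00 ± 0.03, exact permutation p = 1.0).

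**Figure D3:**
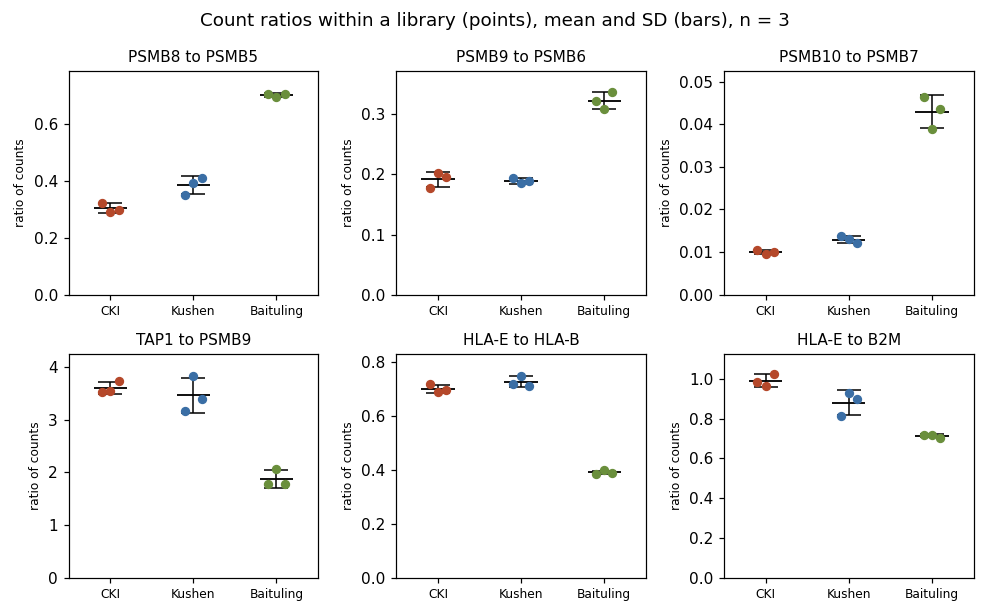
Ratios of the counts of 2 genes within a library (linear axis from 0) by injection. Points are libraries, and bars give the mean and SD of 3. The inducible to constitutive ratios (PSMB8 to PSMB5, PSMB9 to PSMB6, PSMB10 to PSMB7) are highest in Baituling libraries, and TAP1 to PSMB9, HLA-E to HLA-B and HLA-E to B2M are lowest there.

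Levels of different genes were compared per kilobase. Over all annotated exons of a gene, HLA-E (254 ± 8.55 CPM per kilobase, SD, n = 3), HLA-C (243 ± 12.6), B2M (240 ± 7.44) and HLA-B (229 ± 11.9) overlapped with their neighbours in that order in CKI. In Baituling the order was HLA-B (415 ± 11.8) and HLA-C (391 ± 12.6), which overlapped, then B2M (337 ± 4.61) and HLA-E (257 ± 6.28). Next in every group came TAPBP, and TAP2 was lowest in every group, at 6.54 to 9.85 CPM per kilobase on average. By this length PSMB8 stood below TAP1 in CKI and Kushen and above it in Baituling. With the length of the canonical transcript alone, an alternative added after the data were seen, B2M led in CKI and Kushen (796 ± 24.6 and 869 ± 19.7 CPM per kilobase), HLA-B led in Baituling (1248 ± 35.5), and HLA-E was below HLA-C in every group. The canonical transcript of HLA-E (2548 bases) is longer than those of HLA-B (1536) and HLA-C (1542). The order among heavy chains and B2M therefore depended on the length used.

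**Figure D4:**
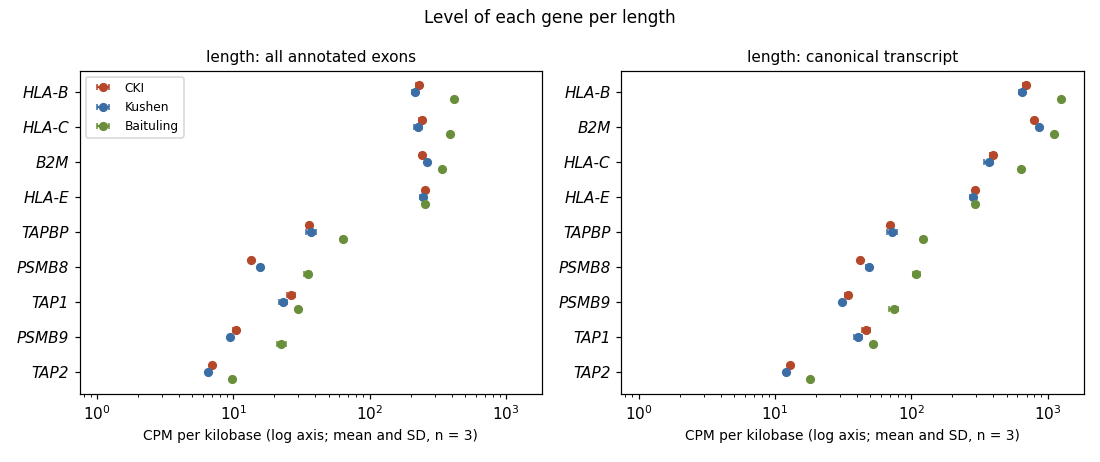
Level of each gene in CPM per kilobase (log axis), by the length of all annotated exons (left) and of the canonical transcript (right). Points are means and bars SDs of 3 libraries. Heavy chains and B2M are highest and TAP2 lowest with either length, while the order within the heavy chains changes.

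Parts of these genes share sequence or strand-blind positions with others. Of the 150-base windows in HLA-B transcripts 20.7% also occur in transcripts of DHFRP2, and 16.8% of those of TAP2 in transcripts of another gene. Both of these other genes overlap on the same strand, over 30.7% of the exon length of HLA-B and 19.5% of that of TAP2. A same-strand overlap of 5.21% was annotated for PSMB9. The counts from such stretches, like those of PSMB10, are uncertain. The other 7 genes shared no exact 150-base window with a reference transcript of another gene. Reads aligned with mismatches can still match related heavy chains, so this does not show that HLA reads were assigned to the right gene. Overlaps with exons of genes on the opposite strand were summed over those genes, so a base shared by several of them counts more than once. They came to 21.3% of the exon length of PSMB8 (PSMB9 among the genes), 21.01% of TAPBP, 14.8% of HLA-B, 14.2% of TAP1 and 4.16% of PSMB9. Among the regulators described next they came to 26.8% of IRF1, 23.3% of RFXANK and 11.5% of CIITA. Unstranded reads there cannot be assigned to a strand. Whether reads of the line's own HLA alleles aligned as well as reference reads was not tested.

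Other genes of the pathway were described from lists, by how many of their tested members passed in each direction. These counts stand beside all genes tested. Of those, 39.1% passed as higher and 37.0% as lower for CKI against Baituling. The shares were 35.6% and 36.1% for Kushen against Baituling, and 19.6% and 20.2% for CKI against Kushen. Shares of all genes on library totals are not reported here, so list counts on that scale only describe the lists. For CKI against Baituling, all 8 other immunoproteasome, activator and assembly genes passed as lower, and all 8 did so for Kushen against Baituling (medians -0.54 and -0.46). Next to PSMB10 stood the assembly chaperone PSMG1 (-0.88 and -0.86), its partner PSMG2 (-0.62 and -0.46), and the activator subunits PSME1 (-0.62 and -0.45) and PSME2 (-0.46 and -0.53). On library totals 6 of the 8 passed as lower and 1 as higher for CKI, with PSME3 and the proteasome maturation factor POMP changing sign, and 7 passed as lower for Kushen. Among 8 genes of peptide loading and trimming in the endoplasmic reticulum, 7 passed as lower and 0 as higher for CKI against Baituling. They included the chaperone calreticulin (CALR, -0.65 ± 0.04, adjusted p = 2.05e-11), PDIA3, which works beside tapasin (-0.52), and the trimming peptidase ERAP2 (-0.63 ± 0.11, adjusted p = 3.43e-05). ERAP1, the other trimming peptidase, was at -0.23 and turned to 0.06 on library totals, where 3 of the 8 passed as lower and calnexin (CANX) as higher (0.35). For Kushen against Baituling 6 passed as lower and CANX as higher (0.24), with ERAP2 (-0.69) and the tapasin-like TAPBPL (-0.60) furthest from 0, and on library totals 3 passed as lower and 2 as higher. Between CKI and Kushen 5 of the 8 were lower under CKI, with CALR at -0.30, PDIA3 at -0.27 and UGGT1, a folding sensor, at -0.25.

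Cytosolic peptidases, which trim or destroy peptides before transport, went both ways. For CKI against Baituling 4 of 8 were higher, such as NRDC (0.63), and 3 lower, such as THOP1 (-0.997) and LAP3 (-0.92). For Kushen against Baituling 4 were higher, led by LNPEP (0.69), and 3 lower, led by THOP1 (-1.05).

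Of 6 class I-like genes 5 were tested. HLA-F, a non-classical heavy chain, was at 9.35 ± 1.01 CPM in CKI, 8.74 ± 1.36 CPM in Kushen and 25.02 ± 1.06 CPM in Baituling (SD, n = 3), with log2 fold changes of -1.42 ± 0.10 and -1.52 ± 0.10 against Baituling (adjusted p = 9.43e-11 and 5.93e-11). Overlaps with antisense exons, summed over genes, came to 33.98% of its exon length. FCGRT, the heavy chain of the neonatal Fc receptor, which also pairs with B2M, was lower under CKI (-1.08) and Kushen (-0.71) than under Baituling, and under CKI than under Kushen (-0.37). HLA-G was lower too (-1.10 and -0.92), from counts of 10 to 22 per library. MR1, which presents vitamin metabolites and needs B2M as well, was higher (0.55 under CKI and 0.32 under Kushen).

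Class II genes, which present peptides to CD4 T cells, were mostly lower as well. Of 13 tested, 10 passed as lower and 1 as higher for CKI against Baituling, and for Kushen against Baituling the numbers were the same, with medians of -1.25 and -1.21. The class II master regulator CIITA was at 5.45 ± 0.388 CPM in CKI, 7.22 ± 0.758 CPM in Kushen and 29.0 ± 0.809 CPM in Baituling (SD, n = 3), with log2 fold changes of -2.41 ± 0.09 and -2.01 ± 0.09 against Baituling (adjusted p = 6.32e-15 and 9.58e-14). HLA-DRA, a class II chain, was at -1.67 and -1.82, HLA-DRB5 at -1.65 and -1.63, the invariant chain CD74 at -1.13 and -1.21, and the protease CTSS, which trims that chain, at -1.57 and -1.86. The chaperone subunit HLA-DMB was the gene that passed as higher (0.19 and 0.25), while its partner HLA-DMA was lower (-0.86 and -0.82). On library totals the counts were also 10 and 1. HLA-DRB1 and HLA-DRB5 are near-identical in parts, so the split of reads between them is uncertain.

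Regulators of class I transcription were mixed. NLRC5, the class I transactivator, was at 24.04 ± 1.93 CPM in CKI, 24.2 ± 0.702 CPM in Kushen and 28.0 ± 0.532 CPM in Baituling (SD, n = 3). Its log2 fold change was -0.22 ± 0.07 for CKI (adjusted p = 0.00586) and -0.21 ± 0.07 for Kushen (adjusted p = 0.0089) against Baituling, and 0.07 and 0.00 on library totals, where neither passed. IRF1, an interferon-induced activator of these promoters, was lower (-0.64 ± 0.05 and -0.65 ± 0.05), as was NFKB1, an NF-kappaB subunit (-0.93 and -1.04). RELA, another NF-kappaB subunit, was at 158 ± 5.88 CPM in CKI, 127 ± 3.38 CPM in Kushen and 147 ± 1.28 CPM in Baituling (SD, n = 3). RFXANK, a subunit of the complex on the class I and II promoters, was lower (-1.01 and -1.09). RFX5 of the same complex did not pass (0.05, adjusted p = 0.315, and 0.00, adjusted p = 0.969). Of the 3 subunits of the CCAAT-binding complex, NFYA was higher (0.76 and 0.78), while NFYB (-0.55 and -0.33) and NFYC (-0.78 and -0.77) were lower. EZH2, a methyltransferase known to silence class I genes in tumours, was lower (-0.87 and -1.12). In all 6 of 18 regulators passed as higher and 7 as lower for CKI against Baituling, and 4 as higher and 10 as lower for Kushen against Baituling (11 and 6, and 7 and 5, on library totals). With TMM, 76.1% and 71.6% of all genes tested passed in either direction in these comparisons.

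Interferon-stimulated genes also differed among themselves. Of 15 tested, 10 passed as lower and 3 as higher under CKI than under Baituling, and likewise under Kushen (medians -0.37 and -0.34), and on library totals 7 passed as lower in each, with 5 and 3 higher. IFIT2 (-1.72 and -1.93), IFIT3 (-1.35 and -1.52), OAS2 (-1.26 and -1.39) and MX1 (-0.97 and -1.38), all antiviral effectors, were lower. The guanylate-binding protein GBP2 (0.58 and 0.27) and IFI6 (0.66 and 0.65) were higher. CD274, which encodes the checkpoint ligand PD-L1, was at 32.2 ± 0.817, 32.7 ± 0.588 and 35.5 ± 2.40 CPM in CKI, Kushen and Baituling (SD, n = 3), with a log2 fold change of -0.14 for CKI against Baituling (adjusted p = 0.0386) that turned to 0.15 on library totals. Between CKI and Kushen 7 of the 15 were higher under CKI, led by MX1 (0.40), and 1 lower. The interferon genes IFNB1, IFNG and IFNL1 had 0 or 1 count per library. SOCS1, an inhibitor of interferon signalling, was at 3.51 ± 0.315, 2.47 ± 0.310 and 17.7 ± 1.64 CPM in CKI, Kushen and Baituling (SD, n = 3), with log2 fold changes of -2.34 ± 0.11 and -2.84 ± 0.12 against Baituling (adjusted p = 4.79e-13 and 1.08e-13). Of the 11 tested genes of interferon receptors and signalling, 5 were higher and 6 lower for CKI against Baituling, and 4 higher and 5 lower for Kushen (6 and 2, and 5 and 2, on library totals).

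Ligands of NKG2D, a receptor of natural killer cells that responds to stressed cells, differed as well. MICA, itself encoded in the MHC, was at 227 ± 3.95 CPM in CKI, 164 ± 3.85 CPM in Kushen and 126 ± 5.95 CPM in Baituling (SD, n = 3). It was higher under CKI than under Kushen (0.47 ± 0.04, adjusted p = 9.00e-08) and than under Baituling (0.85 ± 0.04, adjusted p = 9.89e-13), and higher under Kushen than under Baituling (0.38 ± 0.04, adjusted p = 2.03e-07). Of 6 ligands tested, 4 were higher and 0 lower for CKI against Baituling, 4 and 0 for CKI against Kushen, and 3 higher and 1 lower for Kushen against Baituling. Genes that act on class I at the surface were split: for CKI against Baituling the adaptors SUSD6 (0.73) and TMEM127 (0.62) were higher, while the ubiquitin ligase MARCHF4 was lower (-0.85), as it was under Kushen (-1.46).

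Other genes of the MHC region went both ways. Of 20, 12 passed as lower and 6 as higher for CKI against Baituling (median -0.19), and 13 and 6 for Kushen against Baituling (median -0.22), and on library totals 9 passed in each direction for CKI and 7 in each for Kushen. NEU1 was higher (1.03 and 0.87) and KIFC1, a mitotic kinesin, was lower (-1.89 and -1.58).

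**Figure D5:**
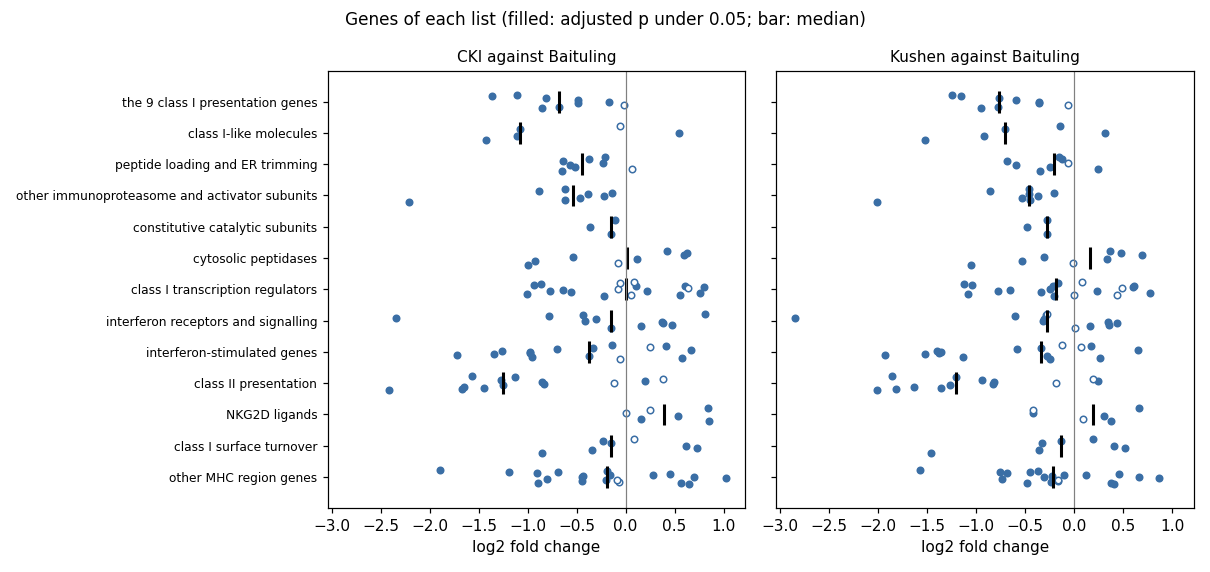
Log2 fold change (horizontal axis) of each tested gene in the 9 class I presentation genes and 12 related lists, for CKI and for Kushen against Baituling. Filled points passed at an adjusted p under 0.05, and black bars are medians. The class II list has the lowest median, -1.25 and -1.21, and the 9 genes have -0.68 and -0.77.

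The genes outside the lists whose profile over the 9 libraries was most like the mean centred log2 CPM of the 9 genes were SFN (r = 0.999), EFHD2 (r = 0.999), CFL1 (r = 0.999), TAGLN2 (r = 0.998) and SNRPB (r = 0.998), out of 11866 genes with enough counts. SFN, for example, was at 115 ± 7.68 CPM in CKI, 108 ± 7.25 CPM in Kushen and 368 ± 26.3 CPM in Baituling (SD, n = 3). The libraries fall into 3 groups, so this r mostly ranks genes by their group means, and 246 genes had an r above 0.99.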

How the data were processed

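The authors trimmed the reads with Trim Galore 0.3.7, aligned them with STAR 2.5.3a to hg19 and deposited a table of raw counts per gene, whole numbers without normalization. The counting program and annotation are not given in the sources used here. Of 24566 rows 222 repeated an Ensembl gene with identical counts and were dropped. Symbols came from GENCODE on GRCh37 (24224 genes) or, for names only, RefSeq on GRCh38.p14 (99), and 21 stayed unnamed. Groups were taken from the labels, and columns were matched to libraries by treatment initial and replicate number.

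Genes were filtered by filterByExpr of edgeR 4.0.16 in R 4.3.3 (minimum count 10, minimum total 15), which removed 10149 genes. All 9 libraries entered a quasi-likelihood fit with TMM scaling and group as the only term, with two-sided tests and Benjamini-Hochberg adjustment. The TMM factors lay between 1.075 and 1.099 (CKI), 1.024 and 1.047 (Kushen), and 0.877 and 0.900 (Baituling). The biological coefficient of variation common to all genes was 4.53%. With total counts over 20144628 per library, counting error was small for the 9 genes, whose lowest count was 731. The chi-square per gene between replicates was 1.70 to 6.85, so no library repeated another. The scripts were checked on simulated counts. Alternatives were DESeq2 1.42.0, other scalings and filters, a replicate block and leaving out each library. P-values of the fit set a difference between groups against the spread between libraries within groups, estimated from all 9 libraries together.

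The genes, lists and tests were chosen with earlier results of these data known. Named in the text were the 9 genes, NLRC5, IRF1, RFX5, PSMB5, PSMB6, PSMB7, PSMB10, ERAP1, ERAP2 and CALR, up to 3 passing genes with the largest change per list and comparison, and the 5 genes with the most similar profile. CANX, POMP, CD74, HLA-DMA, HLA-DMB, HLA-DRB1, CD274, NFYA, NFYC, IFI6, IFNB1, IFNG and IFNL1 were added after their values were seen. Some items that the naming rule covers are not reported here.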

Additional observations from a re-analysis of the deposited data

How the results depend on the processing

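On library totals in place of TMM, 7 of the 9 genes passed between CKI and Kushen in place of 3 (6 higher and 1 lower). The medians of the related lists also moved up in that comparison. Of 18 regulators of class I transcription, 8 passed as higher in place of 3, with a median of 0.14 in place of 0.06. The share of all genes tested that passed between CKI and Kushen on library totals is not reported here. The median log2 fold change of the 9 genes was -0.40 in place of -0.68 for CKI against Baituling and -0.56 in place of -0.77 for Kushen against Baituling. In these 2 comparisons the median of all genes tested moved to 0.32 and 0.23. HLA-E changed sign for CKI against Baituling on library totals (0.27), with upper quartile scaling (0.0583), with at least 10 counts in every library (0.0307) and without CKI replicate 1 (0.0132) or Baituling replicate 1 (0.0003), and for Kushen against Baituling on library totals (0.15) and with upper quartile scaling (0.0109). TAP1 changed sign for CKI against Baituling on library totals (0.12), and TAPBP for CKI against Kushen on library totals (0.0297) and without Kushen replicate 3 (0.0056). Against a log2 fold change of 1, 0, 1 and 2 genes passed for CKI against Kushen, CKI against Baituling and Kushen against Baituling, with no share of all genes reported here. Against the geometric mean of PSMB5, PSMB6 and PSMB7, the PSMB9 ratio differed by -0.90 in both comparisons with Baituling, in place of -0.75 and -0.77. With canonical transcript lengths 5 of the 9 genes kept their rank in the level order, an alternative added after the data were seen. The scalings and tests differ in construction, and beyond that the cause of these changes was not tested.

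With each library left out in turn, 2 to 3 genes passed for CKI against Kushen, 7 to 8 for CKI against Baituling and 8 in every fit for Kushen against Baituling, and the medians of the 9 genes ranged from 0.04 to 0.11, from -0.72 to -0.64 and from -0.81 to -0.72. TAPBP ranged from -0.1015 to 0.0056 for CKI against Kushen and HLA-E from -0.0367 to 0.0132 for CKI against Baituling. No sign of pairing by replicate number was seen. Correlations of same-numbered libraries ran from -0.07 to 0.12, and those of differently numbered libraries from -0.15 to 0.18. With 3 libraries per group these values cannot exclude pairing. A fit with the replicate number as a block changed no call of the 9 genes, with 3, 8 and 8 passing. Numbers of passing genes also stayed within 1.5 times under DESeq2, DESeq2 size factors, no filter, the 2 compared groups alone, repeated rows kept and a robust fit. Groups of 3 libraries limit the precision of each mean, and no exact test of 3 against 3 can go below p = 0.1.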
